A study of Mus musculus with 13 samples.

Results

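Astrocyte marker genes were followed in RNA from laser-captured spinal motoneurons. They are Aldoc, Slc1a2, Slc1a3, Gfap, Aqp4, S100b, Gja1, Aldh1l1, Glul and Apoe, fixed by symbol and not by their values, and they are 10 of the 48709 gene rows of each table. All 10 were found in the GENCODE mouse names and all 10 passed the filter on low counts, with 134 to 37739 counts per library. The mice carried SOD1-G93A, a mutant human SOD1 transgene that causes motoneuron disease. The 3 groups were compared at 65 days of age. The AAV-miR SOD1 group (n = 4, replicates 1 to 4) had received, in the cerebral ventricles on postnatal day 2, an adeno-associated virus (AAV) whose artificial microRNA against human SOD1 is meant for astrocytes. The AAV-miR ctrl group (n = 5, replicates 1, 3, 4, 5 and 6) had received a control virus, and the non-injected littermates (n = 4, replicates 2, 3, 5 and 6) none. All groups carried the mutant transgene, there was no group of healthy mice, and the labels do not name the promoter that drives the microRNA. Each library was made from 500 motoneurons pooled from 1 mouse. They were cut from 14 µm sections of lumbar cord, stained with cresyl violet and frozen inside the vertebrae. Astrocytes were therefore the cells addressed by the vector and not the cells that were captured.

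Astrocytes wrap synapses, capillaries and nerve cell bodies, so that fine astrocyte processes lie against the surface of a spinal motoneuron. They take up synaptic glutamate through the transporters encoded by Slc1a2 and Slc1a3 and turn it into glutamine with glutamine synthetase, encoded by Glul. Aqp4 encodes their water channel, Gja1 their main gap junction protein, Gfap and S100b an intermediate filament and a calcium-binding protein, Aldoc a glycolytic aldolase, Aldh1l1 a folate enzyme and Apoe a lipid carrier. Several of these genes are not confined to astrocytes: Gja1 is also made by bone and connective tissue cells, Apoe by macrophages and microglia, Glul and S100b by oligodendrocytes, S100b by some neurons, and Aldoc by some neurons.

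The promoters of 3 genes are shown because their genes gave the clearest patterns. Aldoc had the largest difference between groups, Gfap varied most among libraries, and Gja1 followed a marker list of another tissue most closely. The sequences are from RefSeq (GRCm38.p6), in which 9 of the 10 members matched a promoter; Aqp4 had no entry. Each is the stretch of up to 250 bases before the gene's start, 5′ to 3′ on the gene's strand. The Aldoc sequence (chr11:78322823-78322967, + strand) has 145 bases because it was ended before the first exon of the GENCODE annotation. The Gfap sequence (chr11:102897201-102897450, − strand) lies in an intron of a longer noncoding Gfap transcript in that annotation. The Gja1 sequence (chr10:56377050-56377299, + strand) lies just outside its gene. Capitals mark matches, on either strand, to 1 of 4 motifs: TTGGC, 1 arm of the nuclear factor I site, the STAT site TTCNNNGAA, the GC box GGGCGG and the AP-1 site TGANTCA. The AP-1 site was added after the Gja1 sequence had been read.
Aldoc: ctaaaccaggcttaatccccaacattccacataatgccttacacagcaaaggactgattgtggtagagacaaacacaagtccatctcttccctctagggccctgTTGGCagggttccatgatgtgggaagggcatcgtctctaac
Gfap: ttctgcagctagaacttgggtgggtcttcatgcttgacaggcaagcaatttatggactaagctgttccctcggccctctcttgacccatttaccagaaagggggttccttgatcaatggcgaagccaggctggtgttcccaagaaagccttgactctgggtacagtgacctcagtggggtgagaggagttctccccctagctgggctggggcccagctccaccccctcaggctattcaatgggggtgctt
Gja1: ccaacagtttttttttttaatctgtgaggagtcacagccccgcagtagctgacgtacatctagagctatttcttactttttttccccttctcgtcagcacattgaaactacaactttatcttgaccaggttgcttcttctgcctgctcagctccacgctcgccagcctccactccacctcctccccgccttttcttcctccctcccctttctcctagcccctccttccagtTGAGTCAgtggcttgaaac
The Aldoc stretch held 1 TTGGC, the Gja1 stretch 1 TGANTCA, and the Gfap stretch none of the 4. The full 250 bases before that Aldoc start also held 1 GGGCGG, outside the 145 bases shown. Before the other of 2 RefSeq starts of Aldoc, 250 bases held 2 TTCNNNGAA and no other motif. Over 32851 RefSeq promoters of 27025 genes, with windows of 250 bases, 41.5% held TTGGC on either strand, 7.02% held TTCNNNGAA, 32.7% held GGGCGG and 6.75% held TGANTCA. A match of these letters is a description of the sequence and not a binding site.

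The libraries had 13.9 to 37.4 megacounts assigned to genes, so that 3 counts correspond to 0.0802 to 0.216 CPM (counts scaled to the library total), far under every member's level. The summary row for alignments that were not unique held 42.3% to 56.8% of the counts in all rows of a table. The 4 control libraries numbered 5 or 6 stood apart in both measures, with 29.7 to 37.4 megacounts and 42.3% to 46.6% in that row. The 9 libraries numbered 1 to 4, which include all AAV-miR SOD1 libraries, had 13.9 to 23.1 megacounts and 49.9% to 56.8%. The part of this difference in the results was not tested. The captures contained the defining motoneuron transcripts: none of 8 motoneuron markers was at 0 in any library, and Chat, which encodes the acetylcholine-synthesising enzyme, was between 39.1 and 155 CPM. The name inside the table is that of another group for 2 libraries, non-injected replicate 3 and AAV-miR ctrl replicate 3. Grouping followed the labels. Both libraries are among the 9 numbered 1 to 4, whose other controls are AAV-miR ctrl replicates 1 and 4 and non-injected replicate 2. Comparisons in that subset thus rest on few controls of each group, and 1 of each has a contrary header. Without the 2 libraries with a contrary header, the same numbers of members were called at an unadjusted p under 0.05 in each of the 4 comparisons. That alternative was added after the data were seen. Fewer cells of a type and less RNA per cell cannot be told apart in such pools.

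Per kilobase of exon, the members spanned more than 100-fold in these captures. The length used is the union of all annotated exons, from 1.48 kb for S100b to 13.1 kb for Slc1a2, and not that of the transcripts expressed. The order depends on it. In CPM, Slc1a2 had group means of 31.5, 42.9 and 31.3 and Aldh1l1 of 14.3, 15.6 and 20.3 (AAV-miR SOD1, AAV-miR ctrl, non-injected). S100b was highest with a median over the 13 libraries of 393 CPM per kilobase (range 264 to 724), followed by Apoe with 261 (range 112 to 446) and Aldoc with 89.8 (range 34.0 to 134). Glul had a median of 49.2, Gfap of 21.6, Gja1 of 13.9 and Aqp4 of 8.43 CPM per kilobase. The folate enzyme gene Aldh1l1 had a median of 2.80, and both glutamate transporter genes were lowest, Slc1a2 with 2.49 and Slc1a3 with 1.67. In the ranking of all tested genes by this measure, S100b stood at percentile 99.2, Aldoc at 96.0, Gfap at 87.4 and Slc1a3 at 43.2. Ranges of neighbours in this order overlapped in every case. The plot of levels per exon length shows this order with every library.

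**Figure D1:**
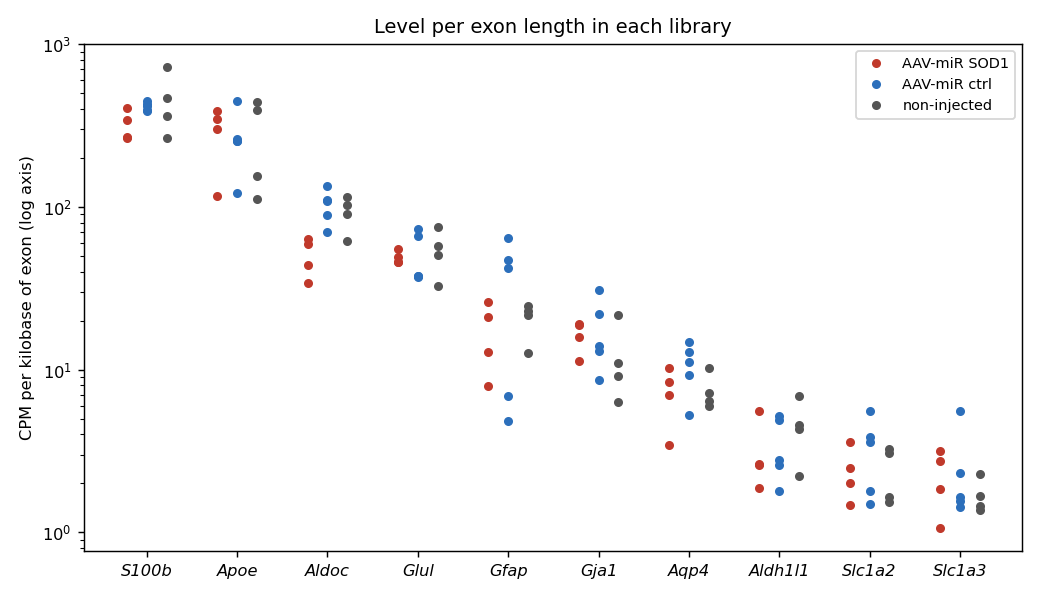
Level of the 10 astrocyte genes in CPM per kilobase of exon on a log axis, with 1 point per library coloured by group. S100b and Apoe lie above 100 in every library, and Aldh1l1, Slc1a2 and Slc1a3 lie below 10 in every library.

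In AAV-miR SOD1 captures, Aldoc was the only one of the 10 whose libraries did not overlap with the AAV-miR ctrl group, at a mean of 164 against 335 CPM. No member passed the adjusted threshold of 0.05 in edgeR's quasi-likelihood test in any of 4 comparisons, and neither did any of the 17403 genes tested (background 0%). At an unadjusted p under 0.05 edgeR called 2529 genes in the comparison with AAV-miR ctrl, 3635 in that with non-injected mice, 629 in that of the controls with each other and 3870 in that with both control groups. DESeq2 called 180, 1025, 2 and 1521 genes past the adjusted threshold in that order, and limma-voom with sample quality weights called 0, 0, 0 and 1461. Leaving out AAV-miR ctrl replicate 1, AAV-miR SOD1 replicate 3 or AAV-miR SOD1 replicate 4, edgeR called 1694, 121 and 1 genes against both together. At an unadjusted p under 0.05, 1 of 10 members was called against AAV-miR ctrl where the background over all genes was 14.5%, 1 of 10 against the non-injected group (background 20.9%), 0 of 10 when the controls were compared (background 3.61%) and 1 of 10 against both control groups together (background 22.2%). The member called was Aldoc each time, and these shares were not above the background. Groups did not overlap for 1 of 10 members against AAV-miR ctrl (background 3.73%). They overlapped for all 10 in the comparison with non-injected mice (background 11.7% without overlap), in that of the controls (0.816%) and in that with both control groups (1.82%).

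The median log2 fold change of the 10 genes was -0.28 against AAV-miR ctrl, where that of all genes was -0.04, and 9 of 10 were below 0 beside 53.7% of all genes. Against the non-injected group the median was -0.09, the same as for all genes, with 6 of 10 below 0 beside 55.1%. Between AAV-miR ctrl and non-injected the median was 0.30, beside -0.01 for all genes, with 4 of 10 below 0 beside 52.0%. These comparisons share their control libraries. The members also varied among themselves within groups: the median within-group standard deviation of log2 CPM was 0.65 for the 10 genes and 0.54 for all genes tested, and 7 of 10 were above the latter. The plots of levels by library and of fold changes show both the differences and this spread.

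**Figure D2:**
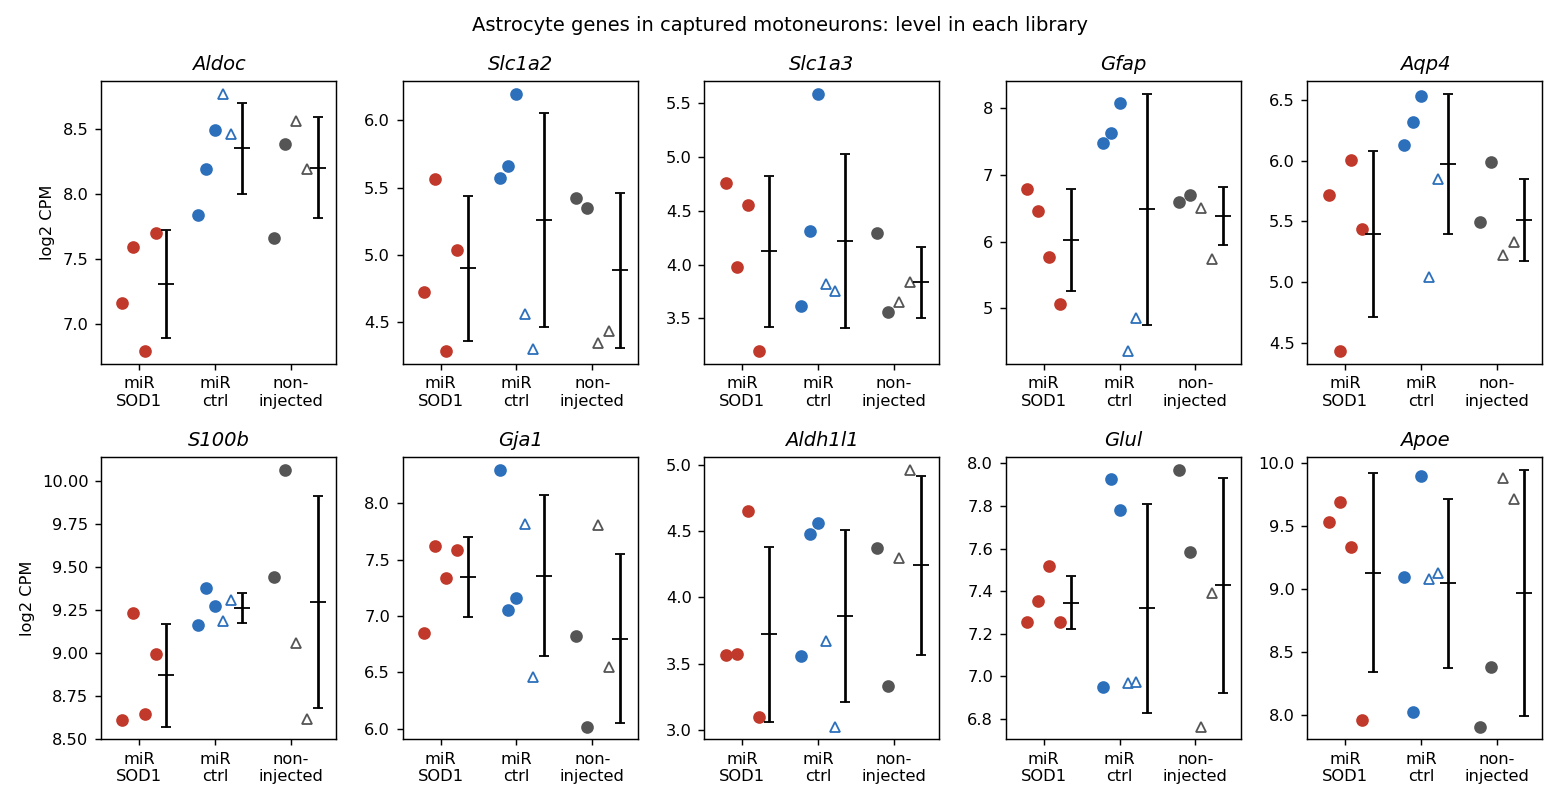
Level of each of the 10 genes in every library as log2 CPM, by group, with the mean and standard deviation beside the points; open triangles are control libraries numbered 5 or 6. Only the Aldoc panel shows AAV-miR SOD1 libraries all below the AAV-miR ctrl libraries.

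**Figure D3:**
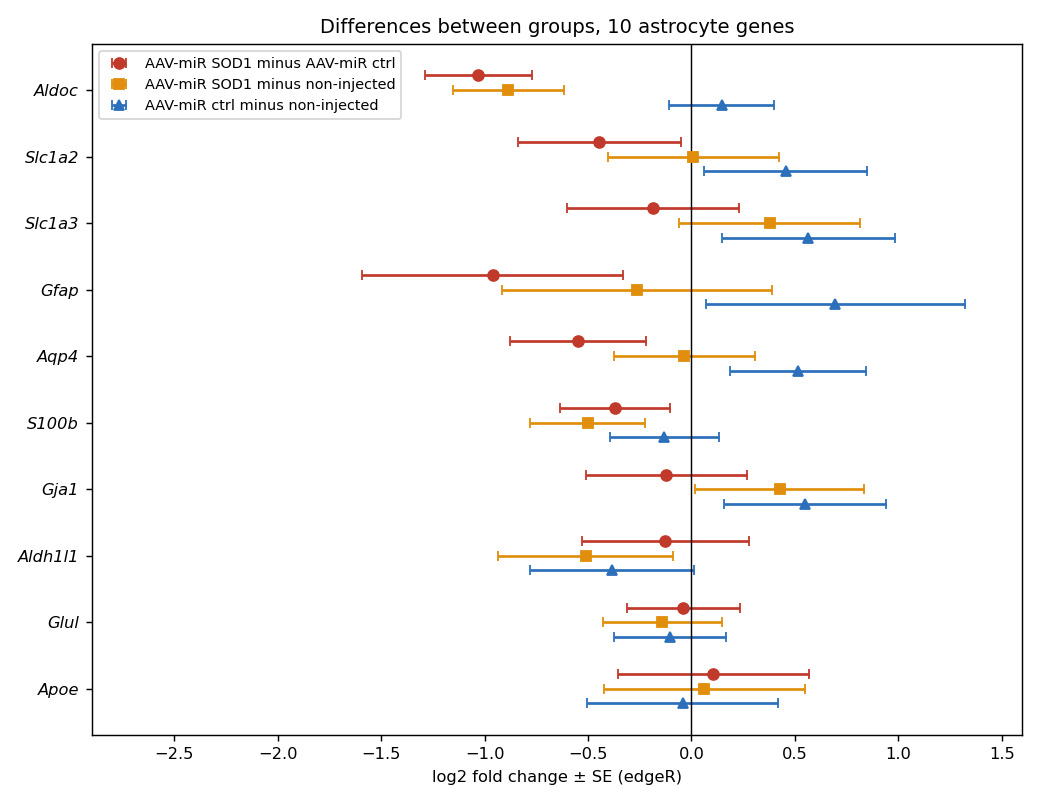
Log2 fold change and its standard error from edgeR for each of the 10 genes in 3 comparisons. Aldoc lies at -1.03 and -0.88 for AAV-miR SOD1 against its control groups, and at 0.15 between the control groups.

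Aldoc encodes aldolase C, the brain form of the glycolytic enzyme that splits fructose bisphosphate (chromosome 11, 78322968 to 78327781, + strand, protein coding, 9 exon blocks). In AAV-miR SOD1 replicates 1, 2, 3 and 4 its level was 143, 193, 111 and 208 CPM. In AAV-miR ctrl replicates 1, 3, 4, 5 and 6 it was 229, 293, 360.4, 437 and 353 CPM, and in non-injected replicates 2, 3, 5 and 6 it was 203, 335, 378 and 293 CPM. All 4 AAV-miR SOD1 libraries were below all 5 AAV-miR ctrl libraries, while AAV-miR SOD1 replicate 4 was just above non-injected replicate 2. Mean levels were 164 ± 44.8 CPM (SD, n = 4), 335 ± 77.9 CPM (SD, n = 5) and 302 ± 74.8 CPM (SD, n = 4).

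The log2 fold change of Aldoc was -1.03 ± 0.26 (SE) against AAV-miR ctrl (edgeR adjusted p = 0.256, 4 of 4 libraries below the control mean). Against the non-injected group it was -0.88 ± 0.27 (SE; edgeR adjusted p = 0.140), and against both together -0.96 ± 0.24 (SE; edgeR adjusted p = 0.0960). The control groups differed by 0.15 ± 0.25 (SE; edgeR adjusted p = 1.00). With DESeq2 the adjusted p was 0.0261 against AAV-miR ctrl, 0.0379 against non-injected and 0.00610 against both; with weighted limma-voom it was 0.0313 against both but 0.0932 against AAV-miR ctrl and 0.0842 against non-injected. Leaving out AAV-miR ctrl replicate 1, the edgeR fit gave -1.01 against both control groups with an adjusted p of 0.0262. Without both libraries with a contrary header, Aldoc had -1.02 against AAV-miR ctrl and -0.75 against non-injected. In libraries numbered 1 to 4 alone it was -0.83 against AAV-miR ctrl (edgeR adjusted p = 0.894), -0.69 against non-injected (edgeR adjusted p = 0.330) and -0.76 against both (edgeR adjusted p = 0.322). There Aldoc no longer had an unadjusted p under 0.05 against non-injected. S100b was the 1 member that did, beside 15.7% of all genes. The direction was the same in every alternative run, from -1.17 to -0.83 against AAV-miR ctrl, with adjusted p from 0.0261 to 0.894 by tool and setting.

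Aldoc also followed the motoneuron markers from library to library. With each group's mean subtracted, Pearson's r between Aldoc and the mean of the 8 motoneuron markers was 0.82 over the 13 libraries (Spearman's rho 0.83, exact permutation within groups p = 0.00123, adjusted over 60 relations 0.0369). It was 0.74 without the 2 libraries farthest from the median and 0.83 over the 9 libraries numbered 1 to 4. Over those 9 libraries S100b had r = 0.91 with the same list, where it had 0.29 over the 13. All 8 motoneuron markers had an unadjusted p under 0.05 and were lower in AAV-miR SOD1 libraries than in both control groups together, with a median log2 fold change of -1.06 (edgeR, 0 of 8 past the adjusted threshold; 12.1% of all genes were called lower). In libraries numbered 1 to 4 alone, 4 of 8 were lower against both (median -0.77, 6.15% of all genes lower) and 7 of 8 against non-injected (median -1.12, 7.64% of all genes lower). Against AAV-miR ctrl the count was 0 of 8 in that subset (median -0.37, 2.43% of all genes lower). With all libraries it was 5 of 8 (median -0.92, 8.54% of all genes lower). Their summed level ranged over 1380 to 2506 CPM in AAV-miR SOD1 libraries, 2004 to 4562 CPM in AAV-miR ctrl and 2226 to 5288 CPM in non-injected libraries, and the part of this shift in the Aldoc difference was not tested. Slc5a7, the choline transporter gene, had a log2 fold change of -1.01 ± 0.25 (SE; edgeR adjusted p = 0.0960). Chat had -0.91 ± 0.24 (SE; edgeR adjusted p = 0.0960), a size close to that of Aldoc.

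The 5 genes whose log2 CPM over the 13 libraries was most like that of Aldoc were Omg with r = 0.96, Fez1 with 0.96, Rab33a with 0.95, Tubb4a with 0.95 and Ano4 with 0.95. Omg encodes a myelin-associated glycoprotein that neurons make as well, and Fez1 an adaptor of axonal transport. Tubb4a encodes a brain beta-tubulin. These values are a description over libraries that share depth and group differences. Aldoa, the aldolase form found in most tissues, had a log2 fold change of -0.48 ± 0.50 (SE; edgeR adjusted p = 0.622) against both control groups, with levels of 2163 to 14438 CPM in AAV-miR SOD1 libraries.

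The genes of glutamate uptake ranked lowest of the members per length, and their ranges overlapped in every comparison of groups. Slc1a2 encodes GLT-1, the main glutamate transporter of the adult nervous system (chromosome 2, 102658659 to 102790784, + strand). Its level was 26.4, 47.3, 19.5 and 32.7 CPM in AAV-miR SOD1 replicates 1 to 4. AAV-miR ctrl replicates 1, 3, 4, 5 and 6 had 47.5, 50.5, 73.2, 23.6 and 19.7 CPM, and non-injected replicates 2, 3, 5 and 6 had 42.7, 40.7, 20.3 and 21.5 CPM. Control libraries numbered 5 or 6 were all lower (19.7 to 23.6 CPM, n = 4) than control libraries numbered 1 to 4 (40.7 to 73.2 CPM, n = 5), and no AAV-miR SOD1 library has a number above 4. Its log2 fold change against AAV-miR ctrl was -0.45 ± 0.39 (SE; edgeR adjusted p = 0.631) with all libraries. With libraries numbered 1 to 4 alone it was -0.84 ± 0.31 (SE; edgeR adjusted p = 0.894). Against non-injected it was 0.01 ± 0.41 (SE; edgeR adjusted p = 0.991) with all libraries and -0.38 ± 0.35 (SE; edgeR adjusted p = 0.607) with those numbered 1 to 4. A share of 1.44% of its exon bases overlaps the antisense gene Gm13872, whose reads cannot be told apart without strand.

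Slc1a3 encodes GLAST, the glutamate transporter of radial glia and astrocytes (chromosome 15, 8634124 to 8710764, − strand). It had 27.0, 15.7, 23.4 and 9.10 CPM in AAV-miR SOD1 replicates 1 to 4, and 12.2, 19.8, 47.8, 14.04 and 13.4 CPM in AAV-miR ctrl replicates 1, 3, 4, 5 and 6. The level was 19.5, 11.7, 12.5 and 14.2 CPM in non-injected replicates 2, 3, 5 and 6. AAV-miR ctrl replicate 4 was the highest library. Its log2 fold change was -0.19 ± 0.42 (SE; edgeR adjusted p = 0.877) against AAV-miR ctrl and turned to 0.34 without that replicate. Against non-injected it was 0.38 ± 0.44 (SE; edgeR adjusted p = 0.662).

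Glul was the steadiest member within the AAV-miR SOD1 group (chromosome 1, 153899944 to 153909723, + strand). It had 153, 163, 183 and 152 CPM in AAV-miR SOD1 replicates 1 to 4. In AAV-miR ctrl replicates 1, 3, 4, 5 and 6 it had 124, 244, 219.6, 125 and 125 CPM, and in non-injected replicates 2, 3, 5 and 6 it had 251, 192, 109 and 168 CPM. The treated libraries lay inside the range of both control groups, with a log2 fold change of -0.04 ± 0.27 (SE; edgeR adjusted p = 0.964) against AAV-miR ctrl and -0.14 ± 0.29 (SE; edgeR adjusted p = 0.819) against non-injected. Of its exon bases, 3.49% overlap Teddm2, and Mir8114 overlaps its exons as well.

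Of 16 further genes of glutamate and glutamine handling, 14 were tested against both control groups. At an unadjusted p under 0.05, 1 was higher and 4 were lower, beside 10.2% of all genes higher and 12.1% lower, and none passed the adjusted threshold in edgeR. Slc38a5, which encodes a glutamine transporter, had 34.0 to 95.4 CPM in the treated libraries, 12.6 to 33.2 CPM in AAV-miR ctrl and 14.1 to 34.4 CPM in non-injected libraries. Its log2 fold change was 1.62 ± 0.32 (SE; edgeR adjusted p = 0.0960). Erythroid markers were higher in the same comparison, 5 of 5 at an unadjusted p under 0.05, with a median of 1.62. The part of blood cells in the Slc38a5 level was not tested. Slc1a4, an exchanger of neutral amino acids, had -0.69 ± 0.24 (SE; edgeR adjusted p = 0.123). Got1, the cytosolic aspartate aminotransferase, had -0.86 ± 0.32 (SE; edgeR adjusted p = 0.139), and Grm3, a metabotropic glutamate receptor, had -1.48 ± 0.64 (SE; edgeR adjusted p = 0.192) at 2.17 CPM or less.

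Gfap, the filament gene that astrocytes raise when reactive, varied more among libraries than any other member (chromosome 11, 102887336 to 102900912, − strand). Its level in AAV-miR SOD1 replicates 1, 2, 3 and 4 was 111, 88.2, 54.4 and 33.3 CPM. AAV-miR ctrl replicates 1, 3 and 4 had 178, 199 and 271 CPM, while replicates 5 and 6 of that group had 20.4 and 28.9 CPM. Non-injected replicates 2, 3, 5 and 6 had 96.2, 104, 91.0 and 53.4 CPM. The highest library was thus 13.3-fold above the lowest, and both were in the AAV-miR ctrl group. The within-group standard deviation of its log2 CPM was 1.20, at percentile 89.9 of all genes tested.

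With all libraries the log2 fold change of Gfap was -0.96 ± 0.63 (SE; edgeR adjusted p = 0.496) against AAV-miR ctrl and -0.26 ± 0.65 (SE; edgeR adjusted p = 0.852) against non-injected. With libraries numbered 1 to 4 alone it was -1.57 ± 0.38 (SE; edgeR adjusted p = 0.894) against AAV-miR ctrl and -0.45 ± 0.42 (SE; edgeR adjusted p = 0.608) against non-injected. AAV-miR ctrl minus non-injected was 0.70 ± 0.63 (SE; edgeR adjusted p = 1.00) with all libraries and 1.12 ± 0.47 (SE; edgeR adjusted p = 0.925) with those numbered 1 to 4. In that subset 4 of 10 members had an unadjusted p under 0.05 against AAV-miR ctrl, all lower: Aldoc, Slc1a2, Gfap and Aqp4. Over all genes the count was 891 of 18274 (4.88%). Oligodendrocyte markers were lower in the same libraries and comparison, 5 of 7 at an unadjusted p under 0.05 with a median log2 fold change of -1.13, beside 2.43% of all genes lower.

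Gfap moved with the oligodendrocyte markers. The r between its within-group deviations and the mean of 7 myelin genes was 0.92 over 13 libraries (rho 0.92, exact permutation p = 0.00314, adjusted over 60 relations 0.0601), 0.87 without the 2 farthest libraries and 0.72 over those numbered 1 to 4. Slc1a2 showed r = 0.78 with the same list (rho 0.74, exact permutation p = 0.0147, adjusted 0.177; 0.63 without the 2 farthest libraries and 0.53 over those numbered 1 to 4). The oligodendrocyte list had 0 of 7 genes called at an unadjusted p under 0.05 against both control groups with all libraries (22.2% of all genes). Its median log2 fold change was -0.53. With libraries numbered 1 to 4 alone, 4 of 7 were lower against both, with a median of -0.77 (6.15% of all genes lower). Its summed level was 1199 to 2748 CPM in AAV-miR SOD1, 1145 to 4547 CPM in AAV-miR ctrl and 1838 to 2828 CPM in non-injected libraries. Mbp, myelin basic protein, had -0.54 ± 0.38 (SE; edgeR adjusted p = 0.445). The part of myelin-bearing cells in the Gfap values was not tested.

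S100b was the most abundant member per length (chromosome 10, 76253853 to 76261159, + strand). It had 391, 603, 401 and 511 CPM in AAV-miR SOD1 replicates 1 to 4. AAV-miR ctrl libraries were close together, at 574, 667, 619.8, 583 and 634 CPM for replicates 1, 3, 4, 5 and 6. Non-injected replicates 2, 3, 5 and 6 spread over 698, 1074, 534 and 393 CPM. All 4 AAV-miR SOD1 libraries were below the mean of either control group, and ranges overlapped. The log2 fold change was -0.37 ± 0.27 (SE; edgeR adjusted p = 0.538) against AAV-miR ctrl and -0.50 ± 0.28 (SE; edgeR adjusted p = 0.321) against non-injected. Among 10 genes of the S100 family, S100b included, 5 were higher at an unadjusted p under 0.05 against both control groups, beside 10.2% of all genes. S100a8 and S100a9, which are granulocyte genes, had log2 fold changes of 1.28 ± 0.50 (SE; edgeR adjusted p = 0.156) and 1.23 ± 0.53 (SE; edgeR adjusted p = 0.191). S100a4 and S100a11, both broadly expressed outside nervous tissue, had 0.97 ± 0.33 (SE; edgeR adjusted p = 0.120) and 0.86 ± 0.25 (SE; edgeR adjusted p = 0.101).

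A list of 22 genes linked to reactive astrocytes did not move in 1 direction. Against both control groups 4 of 22 were higher and 3 lower at an unadjusted p under 0.05 (edgeR, 0 past the adjusted threshold), beside 10.2% of all genes higher and 12.1% lower, with a median log2 fold change of 0.12. Lcn2, a lipocalin that neutrophils also make, was 832 to 2707 CPM in AAV-miR SOD1, 436 to 1531 CPM in AAV-miR ctrl and 575 to 698 CPM in non-injected libraries, with a log2 fold change of 1.15 ± 0.35 (SE; edgeR adjusted p = 0.104). Serpina3n, a secreted protease inhibitor, had -1.49 ± 0.46 (SE; edgeR adjusted p = 0.106). Stat3, the transcription factor of the reactive response, had -0.50 ± 0.17 (SE; edgeR adjusted p = 0.121), and Cd44, an adhesion receptor, had 0.80 ± 0.29 (SE; edgeR adjusted p = 0.138). Blood and marrow markers were higher in the same libraries: 5 of 5 erythroid markers with a row and 5 of 6 neutrophil markers were higher at an unadjusted p under 0.05, beside 10.2% of all genes, with medians of 1.62 and 1.10. The summed erythroid level was 15036 to 33639.8 CPM in AAV-miR SOD1, 2529 to 20457 CPM in AAV-miR ctrl and 3977 to 14624 CPM in non-injected libraries. The summed neutrophil level was 27784 to 75296 CPM in AAV-miR SOD1, 9229 to 63736 CPM in AAV-miR ctrl and 13017 to 22348 CPM in non-injected libraries. Microglial markers were higher for 3 of 9 genes, with a median of 0.52 and summed levels of 817 to 1098 CPM, 476 to 1309.8 CPM and 281 to 758 CPM in the same order of groups. The part of these cells in the values of the list was not tested.

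Aqp4 and Gja1 serve water and solute flow across the astrocyte network. Aqp4 had 52.5, 21.6, 64.2 and 43.4 CPM in AAV-miR SOD1 replicates 1 to 4. It had 69.8, 79.7, 92.3, 32.9 and 57.6 CPM in AAV-miR ctrl replicates 1, 3, 4, 5 and 6, and 45.1, 63.5, 37.3 and 40.2 CPM in non-injected replicates 2, 3, 5 and 6. The 3 highest libraries were AAV-miR ctrl libraries. Its log2 fold change was -0.55 ± 0.33 (SE; edgeR adjusted p = 0.450) against AAV-miR ctrl, with 3 of 4 libraries below the control mean, and -0.03 ± 0.34 (SE; edgeR adjusted p = 0.965) against non-injected, a sign that turned under several alternatives. AAV-miR ctrl minus non-injected was 0.51 ± 0.33 (SE; edgeR adjusted p = 1.00).

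Gja1 encodes connexin 43 (chromosome 10, 56377330 to 56402513, + strand). Its level was 115, 197, 162 and 192 CPM in AAV-miR SOD1 replicates 1 to 4. AAV-miR ctrl replicates 1, 3, 4, 5 and 6 had 315, 133, 143, 226 and 88.1 CPM, and non-injected replicates 2, 3, 5 and 6 had 113, 64.8, 224 and 93.5 CPM. The highest and lowest libraries were both controls. Its log2 fold change was -0.12 ± 0.39 (SE; edgeR adjusted p = 0.918) against AAV-miR ctrl and 0.43 ± 0.41 (SE; edgeR adjusted p = 0.588) against non-injected.

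Gja1 had the closest relation of any member to another cell type's markers. Its within-group deviations followed the mean of 5 bone and connective tissue genes with r = 0.96 over 13 libraries (rho 0.95, exact permutation p = 0.000217, adjusted over 60 relations 0.0130). The r was 0.92 without the 2 farthest libraries and 0.94 over the 9 numbered 1 to 4. The summed level of these 5 genes was high in captures meant to hold motoneurons, at 9228 to 23364 CPM in AAV-miR SOD1, 6388 to 33367 CPM in AAV-miR ctrl and 5236 to 24487 CPM in non-injected libraries. Col1a1, a collagen of bone and connective tissue, ranged over 1382 to 10528 CPM in all libraries. None of the 5 was called against both control groups (22.2% of all genes), with a median log2 fold change of 0.16. Against non-injected, where Gja1 had 0.43, the median was 0.54 with 5 of 5 above 0 and none called (20.9% of all genes). Between AAV-miR ctrl and non-injected, where Gja1 had 0.55 ± 0.39 (SE; edgeR adjusted p = 1.00), the median of the 5 was 0.98 with 5 of 5 above 0 and 1 called higher, beside 1.38% of all genes. In libraries numbered 1 to 4 alone, 3 of 5 were called higher against non-injected (8.03% of all genes) and 5 of 5 between the control groups (3.73% of all genes), with medians of 1.32 and 1.61; there Gja1 had 0.92 and 1.17. These comparisons share the non-injected libraries, which in that subset are replicates 2 and 3 alone, and replicate 3 has a contrary header. The part of bone or connective tissue RNA in the Gja1 level was not tested.

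Of 14 partners of these channels, 2 were higher and 0 lower at an unadjusted p under 0.05 against both control groups, close to the shares of all genes (10.2% higher, 12.1% lower), and none passed the adjusted threshold in edgeR. Both were other aquaporins. Aqp9, a channel for water and glycerol that leukocytes also carry, had 7.96 to 18.9 CPM in AAV-miR SOD1, 3.52 to 9.41 CPM in AAV-miR ctrl and 1.71 to 6.09 CPM in non-injected libraries, a log2 fold change of 1.33 ± 0.33 (SE; edgeR adjusted p = 0.0960). Aqp1, also the water channel of red cells, had 0.73 ± 0.23 (SE; edgeR adjusted p = 0.107). Dag1, the dystroglycan that anchors Aqp4 at endfeet, had -0.41 ± 0.29 (SE; edgeR adjusted p = 0.436).

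**Figure D4:**
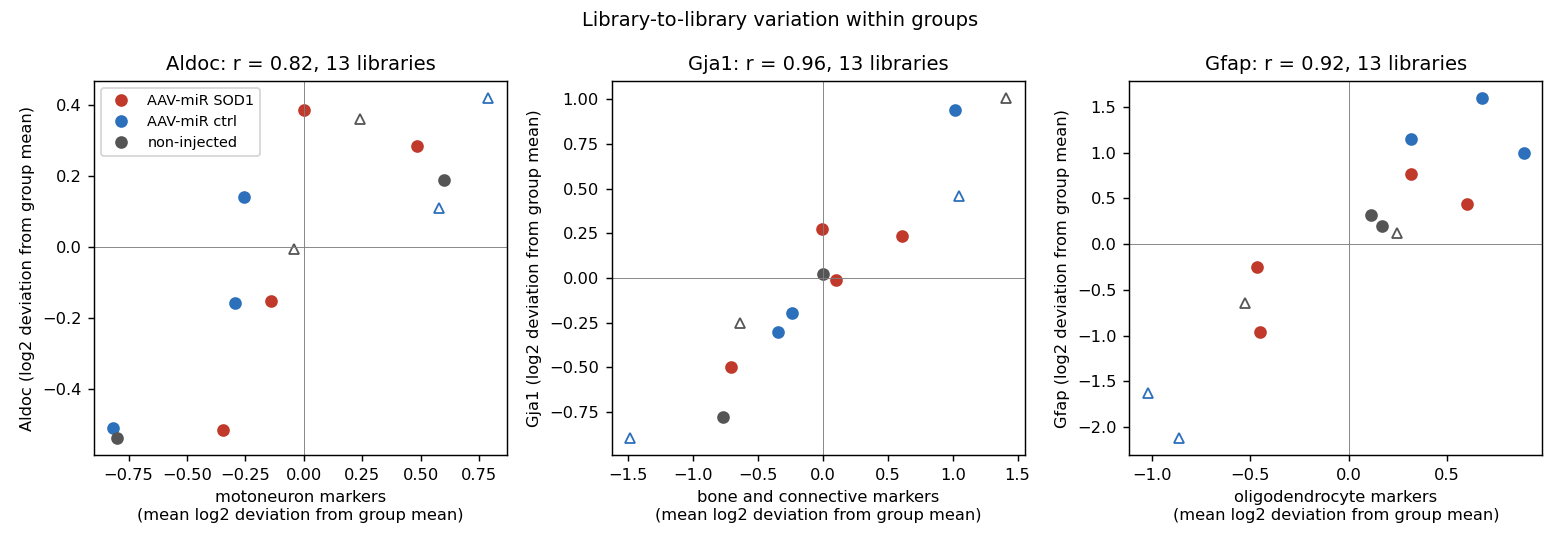
Deviation of Aldoc, Gja1 and Gfap from their group means (log2 CPM) against the mean deviation of 3 marker lists, with 1 point per library; open triangles are control libraries numbered 5 or 6. The r over 13 libraries is 0.82 for Aldoc with motoneuron markers, 0.96 for Gja1 with bone and connective markers and 0.92 for Gfap with oligodendrocyte markers.

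Aldh1l1 marks astrocytes throughout the cord and encodes 10-formyltetrahydrofolate dehydrogenase (chromosome 6, 90486427 to 90600203, + strand). Its level was 11.8, 11.8, 25.1 and 8.47 CPM in AAV-miR SOD1 replicates 1 to 4, 11.7, 22.2, 23.5, 12.6 and 8.06 CPM in AAV-miR ctrl replicates 1, 3, 4, 5 and 6, and 20.7, 9.97, 19.6 and 31.1 CPM in non-injected replicates 2, 3, 5 and 6. No group stood apart. The log2 fold change was -0.13 ± 0.40 (SE; edgeR adjusted p = 0.918) against AAV-miR ctrl and -0.51 ± 0.42 (SE; edgeR adjusted p = 0.522) against non-injected. Of its exon bases, 11.05% overlap the antisense gene Gm15756, and Gm45901 overlaps its exons as well, so the Aldh1l1 count is uncertain. It followed endothelial markers with r = 0.77 (rho 0.76, exact permutation p = 0.00401, adjusted 0.0601; 0.69 without the 2 farthest libraries and 0.59 over those numbered 1 to 4). Of 6 endothelial markers 0 were called at an unadjusted p under 0.05 against both control groups, beside 22.2% of all genes. Their summed level was 126 to 254 CPM in AAV-miR SOD1, 123 to 221 CPM in AAV-miR ctrl and 106 to 212 CPM in non-injected libraries. The part of vessel cells in the Aldh1l1 level was not tested. Of 10 folate partners, 2 were higher at an unadjusted p under 0.05 against both control groups, beside 10.2% of all genes. The one reported here is Tyms, thymidylate synthase, with 1.07 ± 0.33 (SE; edgeR adjusted p = 0.104). Aldh1l2, the mitochondrial relative of Aldh1l1, had -0.86 ± 0.51 (SE; edgeR adjusted p = 0.343).

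Apoe was abundant and spread widely in every group (chromosome 7, 19696109 to 19699188, − strand). It had 739, 827, 643 and 249 CPM in AAV-miR SOD1 replicates 1 to 4. AAV-miR ctrl replicates 1, 3, 4, 5 and 6 had 546, 259, 953, 540.2 and 559 CPM, and non-injected replicates 2, 3, 5 and 6 had 239.6, 332, 942 and 839.9 CPM. Each group held libraries near the lowest and near the highest level. The log2 fold change was 0.11 ± 0.46 (SE; edgeR adjusted p = 0.942) against AAV-miR ctrl and 0.06 ± 0.49 (SE; edgeR adjusted p = 0.956) against non-injected. With libraries numbered 1 to 4 the latter was 1.13 ± 0.58 (SE; edgeR adjusted p = 0.353). Of 15 genes of apolipoprotein E lipid handling, 1 was higher and 1 lower at an unadjusted p under 0.05 against both control groups, beside 10.2% and 12.1% of all genes, with a median log2 fold change of -0.06, beside -0.06 for all genes. Trem2, a lipid receptor of microglia, was at most 12.7 CPM in AAV-miR SOD1 libraries, 6.50 CPM in AAV-miR ctrl and 5.58 CPM in non-injected libraries, with a log2 fold change of 0.79 ± 0.26 (SE; edgeR adjusted p = 0.114). Vldlr, a receptor that binds apolipoprotein E, had -0.59 ± 0.23 (SE; edgeR adjusted p = 0.151).

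A further list held 26 astrocyte genes. Against both control groups 4 were lower and 0 higher at an unadjusted p under 0.05, beside 12.1% of all genes lower and 10.2% higher. Of the 26 genes 21 were below 0, beside 54.2% of all genes. Their median log2 fold change was -0.33, beside -0.06 for all genes. None passed the adjusted threshold in edgeR. Sparcl1, a matricellular synaptogenic protein, had 201 to 285 CPM in AAV-miR SOD1, 283 to 551 CPM in AAV-miR ctrl and 286 to 517 CPM in non-injected libraries, a log2 fold change of -0.88 ± 0.23 (SE; edgeR adjusted p = 0.0960). Clu, the chaperone clusterin, had -0.86 ± 0.29 (SE; edgeR adjusted p = 0.117). Fgf1, a growth factor, had -0.69 ± 0.21 (SE; edgeR adjusted p = 0.103), and Bcan, a perineuronal matrix proteoglycan, had -0.64 ± 0.25 (SE; edgeR adjusted p = 0.159). Sparcl1, Clu and Fgf1 are known in motoneurons too. Without both libraries whose header contradicts their label, the count was 4 of 26 (7.75% of all genes lower, 9.84% higher). The median was then -0.19, beside 0.008 for all genes.

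The 10 genes did not vary as 1 block. Among their 45 pairs, 29 had an r above 0 in within-group deviations, with a median r of 0.12. Permutation p was under 0.05 for 4 pairs, and no pair passed adjustment over the 45. Slc1a2 and Gfap had r = 0.75 (rho 0.75, exact permutation p = 0.0211, adjusted 0.324; 0.59 without the 2 farthest libraries and 0.26 over those numbered 1 to 4). Slc1a3 had r = 0.65 with Aldh1l1 (rho 0.73, exact permutation p = 0.0218, adjusted 0.324; 0.55 without the 2 farthest libraries and 0.72 over those numbered 1 to 4). Slc1a3 and Glul had r = 0.59 (rho 0.68, exact permutation p = 0.0186, adjusted 0.324; 0.57 without the 2 farthest libraries and 0.60 over those numbered 1 to 4). Slc1a2 and S100b had r = 0.54 (rho 0.56, exact permutation p = 0.0288, adjusted 0.324; 0.68 without the 2 farthest libraries and 0.59 over those numbered 1 to 4). Aldoc was in none of these pairs. Its r with S100b was 0.20 over the 13 libraries and 0.83 over those numbered 1 to 4. Of 60 relations between a member and 1 of 6 marker lists, 5 had a permutation p under 0.05 and 2 passed adjustment, those of Gja1 and Aldoc.

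**Figure D5:**
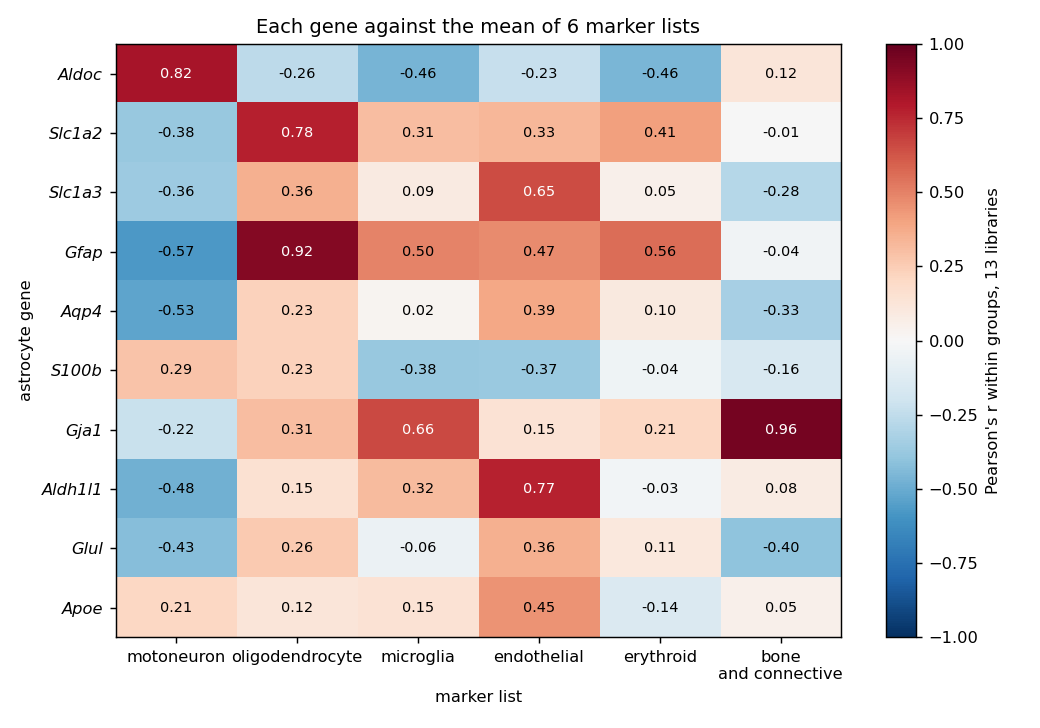
Pearson's r over 13 libraries between within-group deviations of each gene (rows) and the mean of each of 6 marker lists (columns); colour and number give r. Aldoc peaks at motoneuron markers (0.82), Gfap and Slc1a2 at oligodendrocyte markers (0.92 and 0.78), Aldh1l1 at endothelial markers (0.77) and Gja1 at bone and connective markers (0.96).

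The mean of the 10 genes over the 13 libraries was highest in AAV-miR ctrl replicate 4, at 0.78 log2 units above the genes' means, and lowest in AAV-miR SOD1 replicate 4, at -0.44. Genes most like this mean were Mbp with r = 0.87, Slc4a4 with 0.86, Bcas1 with 0.86, Cmtm5 with 0.86 and Gpm6b with 0.84. Mbp and Bcas1 are oligodendrocyte genes, Slc4a4 is the astrocyte bicarbonate transporter, and Gpm6b is a proteolipid of neurons and glia. The summed level of the 10 genes was 1438 to 2167 CPM in AAV-miR SOD1, 1887 to 2804 CPM in AAV-miR ctrl and 1728 to 2367 CPM in non-injected libraries, and these ranges overlapped.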

How the data were processed

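Each of 13 deposited tables held raw read counts per Ensembl gene, 1 sample per table, made by the authors. Per the submitters' processing notes the tools were cutadapt 1.8, STAR 2.5.2b and HTSeq 0.6.1 with GRCm38; annotation, strand and overlap settings are not given in the sources used here. The 5 summary rows (47.0% to 61.6% of the counts in all rows) were left out. GENCODE M21 named 48349 of 48709 identifiers (99.986% of counts).

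Genes passing filterByExpr (minimum count 10, minimum total 15; 17403 genes) were tested on all 13 libraries and 3 groups with edgeR 4.0.16 (R 4.3.3), using TMM scaling, the quasi-likelihood F test and Benjamini-Hochberg adjustment at 0.05. Both control groups together means the mean of the control group means. CPM use TMM-scaled totals; log2 CPM use a prior count of 2. DESeq2 1.42.0 and limma 3.58.1 (voom with sample quality weights) were alternatives. Relations used exact two-sided permutation within groups (69120 permutations). The fits were tested on simulated data with genes drawn independently and planted changes larger than that of any member. That test does not cover smaller changes or shifts shared by many genes.

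The members and lists were chosen with earlier results of these data known. The text names all members, up to 4 genes per list with the smallest p against both control groups, and the 5 genes most like Aldoc and like the members' mean. Some genes that this rule names are not reported here. Nothing states whether replicates are separate litters, so p-values measure the spread between these mice. No library copied another.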

Additional observations from a re-analysis of the deposited data

How the results depend on the processing

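Of 40 log2 fold changes of the 10 genes in 4 comparisons, 22 kept their direction in every alternative (24 alternatives, and 23 against both control groups) and 18 turned in at least 1; the cause was not tested. Aldoc kept its direction in all 4 comparisons. It passed the adjusted threshold with DESeq2 (-1.004 against AAV-miR ctrl, -0.84 against non-injected, -0.92 against both), with limma-voom and sample quality weights (-0.93 against both) and, against both, without AAV-miR ctrl replicate 1.

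Counts of genes past the adjusted threshold, 0 in edgeR, were 180, 1025, 2 and 1521 with DESeq2 in the 4 comparisons (treated against AAV-miR ctrl, treated against non-injected, controls, treated against both). Against both they were 1461 with limma-voom, 1 with no filter, and 0 to 1694 when leaving out 1 library. Members called at an unadjusted p under 0.05, against AAV-miR ctrl, were 2 with the header exchange (19.9% of all genes), 4 in libraries numbered 1 to 4 (4.88%), 2 with limma-voom (21.9%) and 1 to 3 leaving out 1 library (3 without AAV-miR ctrl replicate 5: Aldoc, Gfap and Aqp4, beside 9.3% of all genes). Between control groups they were 1 with the header exchange (4.48% of all genes) and 2 in libraries numbered 1 to 4 (Gfap and Gja1, 5.07%). Leaving out 1 library they were 0 to 1 there: Aqp4 without AAV-miR ctrl replicate 5 (4.45% of all genes) and Gja1 without non-injected replicate 5 (3.51%). Against non-injected they were 1 to 2 leaving out 1 library. Those 2 were Aldoc and Gja1 without non-injected replicate 5 (18.6%), and Aldoc and S100b without non-injected replicate 6 (16.6%). Against both they were 1 to 2 leaving out 1 library (Aldoc and S100b without non-injected replicate 6, 20% of all genes). In libraries numbered 1 to 4 they were 3 against both (Aldoc, Gfap and S100b, 14.2%).

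Signs turned as follows. With the header exchange, Aldh1l1 gave 0.12 and Glul 0.054 against AAV-miR ctrl, Slc1a2 -0.10 against non-injected, and S100b 0.28 and Apoe 0.039 between control groups. In libraries numbered 1 to 4, Slc1a2 gave -0.38 against non-injected, Aldh1l1 0.32 and Apoe 1.04 between control groups and Slc1a3 -0.095 against both. With limma-voom, Gja1 gave 0.17 and Apoe -0.21 against AAV-miR ctrl, Apoe -0.18 against non-injected, S100b 0.10, Glul 0.12 and Apoe 0.035 between control groups, and Slc1a3 -0.076 and Apoe -0.19 against both. Aqp4 against non-injected gave 0.011 with DESeq2, 0.012 with RLE scaling, 0.032 with the groups compared alone and 0.016 with upper quartile scaling, which also gave Apoe 0.036 between control groups. Without both libraries with a contrary header, an alternative chosen after seeing the data, Aldh1l1 gave 0.084, Glul 0.19 and Apoe -0.027 against AAV-miR ctrl, Aqp4 0.23 and Apoe -0.046 against non-injected, S100b 0.17 between control groups, and Glul 0.071 and Apoe -0.036 against both.

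Leaving out 1 library, values against AAV-miR ctrl ran from -0.41 to 0.34 for Slc1a3, -0.29 to 0.18 for Gja1, -0.49 to 0.088 for Aldh1l1, -0.13 to 0.19 for Glul and -0.066 to 0.37 for Apoe. Against non-injected they ran from -0.24 to 0.26 for Slc1a2, -0.18 to 0.21 for Aqp4, -0.29 to 0.13 for Glul and -0.14 to 0.44 for Apoe. Between control groups they ran from -0.32 to 0.18 for S100b, -0.27 to 0.12 for Glul and -0.31 to 0.31 for Apoe. Against both they ran from -0.48 to 0.0036 for Slc1a2, -0.13 to 0.36 for Slc1a3, -0.16 to 0.072 for Glul and -0.075 to 0.34 for Apoe. Of the 24 values that kept their sign, 20 moved by over 1.5 times without at least 1 library; the exceptions were the 3 Aldoc values for AAV-miR SOD1 and Aqp4 between control groups. Against AAV-miR ctrl, Slc1a2 ran from -0.17 (without AAV-miR ctrl replicate 4) to -0.71 (without AAV-miR SOD1 replicate 2) and Gfap from -0.58 (without AAV-miR ctrl replicate 4) to -1.25 (without AAV-miR SOD1 replicate 1). Against non-injected, Gfap ran from -0.031 (without AAV-miR SOD1 replicate 4) to -0.55 (without AAV-miR SOD1 replicate 1), Gja1 from 0.21 (without non-injected replicate 3) to 0.91 (without non-injected replicate 5) and Aldh1l1 from -0.23 (without non-injected replicate 6) to -0.86 (without AAV-miR SOD1 replicate 3).

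Replicate numbers were not used as pairs in the main fit. Of 8 pairs with the same number, deviations correlated at -0.19 to 0.24 (median 0.02), with 3 above 0.1. Of 48 pairs with different numbers they correlated at -0.38 to 0.34 (median -0.007), with 15 above 0.1. So few pairs cannot tell whether libraries with the same number share a litter or a run. With the replicate block, 3 members were called at an unadjusted p under 0.05 against AAV-miR ctrl (Aldoc, Slc1a2 and Aqp4; 8.82% of all genes) and 4 against both (these and Gfap; 11.1%), and the adjusted p of Aldoc was 0.565 against AAV-miR ctrl. Gja1 turned to 0.024 against AAV-miR ctrl, Slc1a2 to -0.62 against non-injected, Gfap to -0.24 and S100b to 0.020 between control groups, and Slc1a3 to -0.071 against both.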

Other observations

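In 30 groups of log2 CPM values (10 genes in 3 groups), no extreme library exceeded Dixon's 95% critical value for its gap to the nearest library divided by the group's range; chance would set apart about 1 in 20, and with 4 or 5 libraries only a very large gap can exceed it. The gap was 0.802 of the range for Gfap in non-injected replicate 6 (53.4 CPM), 0.791 for Apoe in AAV-miR SOD1 replicate 4 (249 CPM) and 0.646 for Slc1a3 in AAV-miR ctrl replicate 4 (47.8 CPM).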
